A study of Danio rerio with 21 samples.

Results

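The libraries came from biotagged macrophage nuclei pulled down from zebrafish hearts. At 1 day post injury (dpi), a small set of genes held a smaller share of the counts in injured hearts than in sham-operated ones. This was so whether the ventricle was cryoinjured or resected. The genes were chosen by their CPM, the count of a gene divided by the total count of its library and scaled to the same total in every library. For each gene the lowest of the 3 sham libraries at 1 dpi was divided by the highest of the 5 injured libraries at 1 dpi, after 1 CPM was added to both, and the 150 highest ratios were taken from 31939 genes. Only 137 genes, 0.429% of those ranked, had a ratio above 1, meaning that every sham lay above every injured library. The other 13 places fell to genes tied at a ratio of exactly 1, among 6937 such genes that were at 0 in the lowest sham and in every injured library, and they were set aside. Among them are opn1mw4, OTOL1, KCNA2, ca15c, fabp4b, LHX8, CYP11A1, ugt5d1, DMBX1, PCED1B, her11 and ANKRD2. In the opposite direction, every injured library lay above every sham for 1825 genes, or 5.71%.

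All fish were adults of the TgBAC line ox133, with the transgenes mpeg1:BirA-Citrine and, as its partner, bactin:Avi-Cerulean-Rangap. In these fish a BAC with the mpeg1 promoter drives the biotin ligase BirA in macrophages, and a ubiquitous promoter drives an Avi-tagged protein of the nuclear envelope, so that macrophage nuclei become biotinylated and can be pulled down with streptavidin. By the study's methods each library came from a single heart, and sham, cryoinjured and resected fish carried both transgenes. The labels of 5 dpi sham replicate 2, 14 dpi sham round 1 replicate 3 and 14 dpi cryoinjury round 2 replicate 1 say merged. What was merged is not stated there. Shams had the ventricle exposed without injury, cryoinjury was made with a probe cooled in liquid nitrogen, and resection removed part of the apex. Day 1 had 3 sham, 2 cryoinjured and 3 resected hearts, day 5 had 2 of each, and day 14 had 4 sham and 3 cryoinjured hearts. Total counts ranged from 10577395 to 61141100, and 12608 to 14075 genes had a count in the shams at 1 dpi against 14322 to 21742 in the injured libraries.

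The labelled cell type was weak in its own markers. Of the paralogues of mpeg1, the gene whose promoter drives the biotin ligase, the highest one lay at 0.867 to 3.29 CPM in the shams at 1 dpi, while MYL7, the atrial and ventricular myosin light chain of cardiomyocytes, lay at 13186 to 29577 CPM. Summed over 25 macrophage genes the level was 102 to 222 CPM in these shams and 456 to 983 CPM in the injured libraries. Over 21 cardiomyocyte genes it was 86809 to 102221 CPM in the shams and 57081 to 81522 CPM in the injured libraries. Both totals separated the groups without overlap, the cardiomyocyte total in the direction of the members and the macrophage total in the opposite one. The epidermal total was also higher in every injured library (336 to 1771 against 1944 to 9655 CPM). The part of these totals in what follows was not tested. After TMM scaling of the 1 dpi libraries (trimmed mean of M values, which aligns libraries on the bulk of their genes) the macrophage totals stayed apart, whereas the cardiomyocyte totals overlapped, at 94029 to 207599 and 36265 to 98220 CPM. In bulk libraries such as these, fewer nuclei of a type and less RNA per nucleus cannot be told apart.

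Heart muscle runs mainly on oxidative phosphorylation. The citric acid cycle feeds electrons into the respiratory chain, whose complex I oxidises NADH and whose complex IV reduces oxygen, and ATP synthase uses the resulting proton gradient. Actin and myosin filaments, anchored at the Z disc and switched on by troponin, spend that ATP on contraction. By a grouping made after the values were seen, 41 encode mitochondrial proteins and a further 12 proteins of the sarcomere, the Z disc or contraction, while 9 serve fuel metabolism in the cytosol, 11 are secreted, receptor or surface signalling proteins, and 64 fit no such group. A symbol was known for 131 of the 137, many of them written in the human style in the table of names.

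The genes were lowered rather than lost. The ratio ran from 1.00 to 3.54 with a median of 1.18, and it exceeded 2 for 5 genes and 1.5 for 21. Every injured library held at least 10 CPM of 79 members, and 66 members were at 100 CPM or more in every sham. The only member at 0 in all 5 injured libraries was fgl2b, a fibrinogen-like protein, and its shams held 2, 2245 and 8 counts, so the lowest sham lay under the floor of 3 counts used here. In single libraries, 21 members were at 0 in cryoinjury replicate 2 and 5 in replicate 3, and 6 were at 0 in a resection library. Mean levels were lower after cryoinjury than after resection for 95 members and higher for 41. The median fold by which the shams exceeded the injured group was 2.73 for cryoinjury and 2.15 for resection, on means of log2(CPM + 1). This order of the injuries depended on scaling by the column total. On TMM-scaled log2 values relative to the 1 dpi shams, the median member stood at -1.78 and -1.02 in the cryoinjury libraries. In the resection libraries it stood lower, at -2.31 to -2.22. On TMM-scaled values every sham lay above every injured library for 400 genes, of which 108 were among the 137, so 29 members depended on scaling by the column total. With 1 dpi sham replicate 3 left out, 563 genes would have had a ratio above 1, with replicate 1 left out 421, and with replicate 2 left out 292. All of these 1 dpi values chose the members, so they are given as a description and carry no test.

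**Figure D1:**
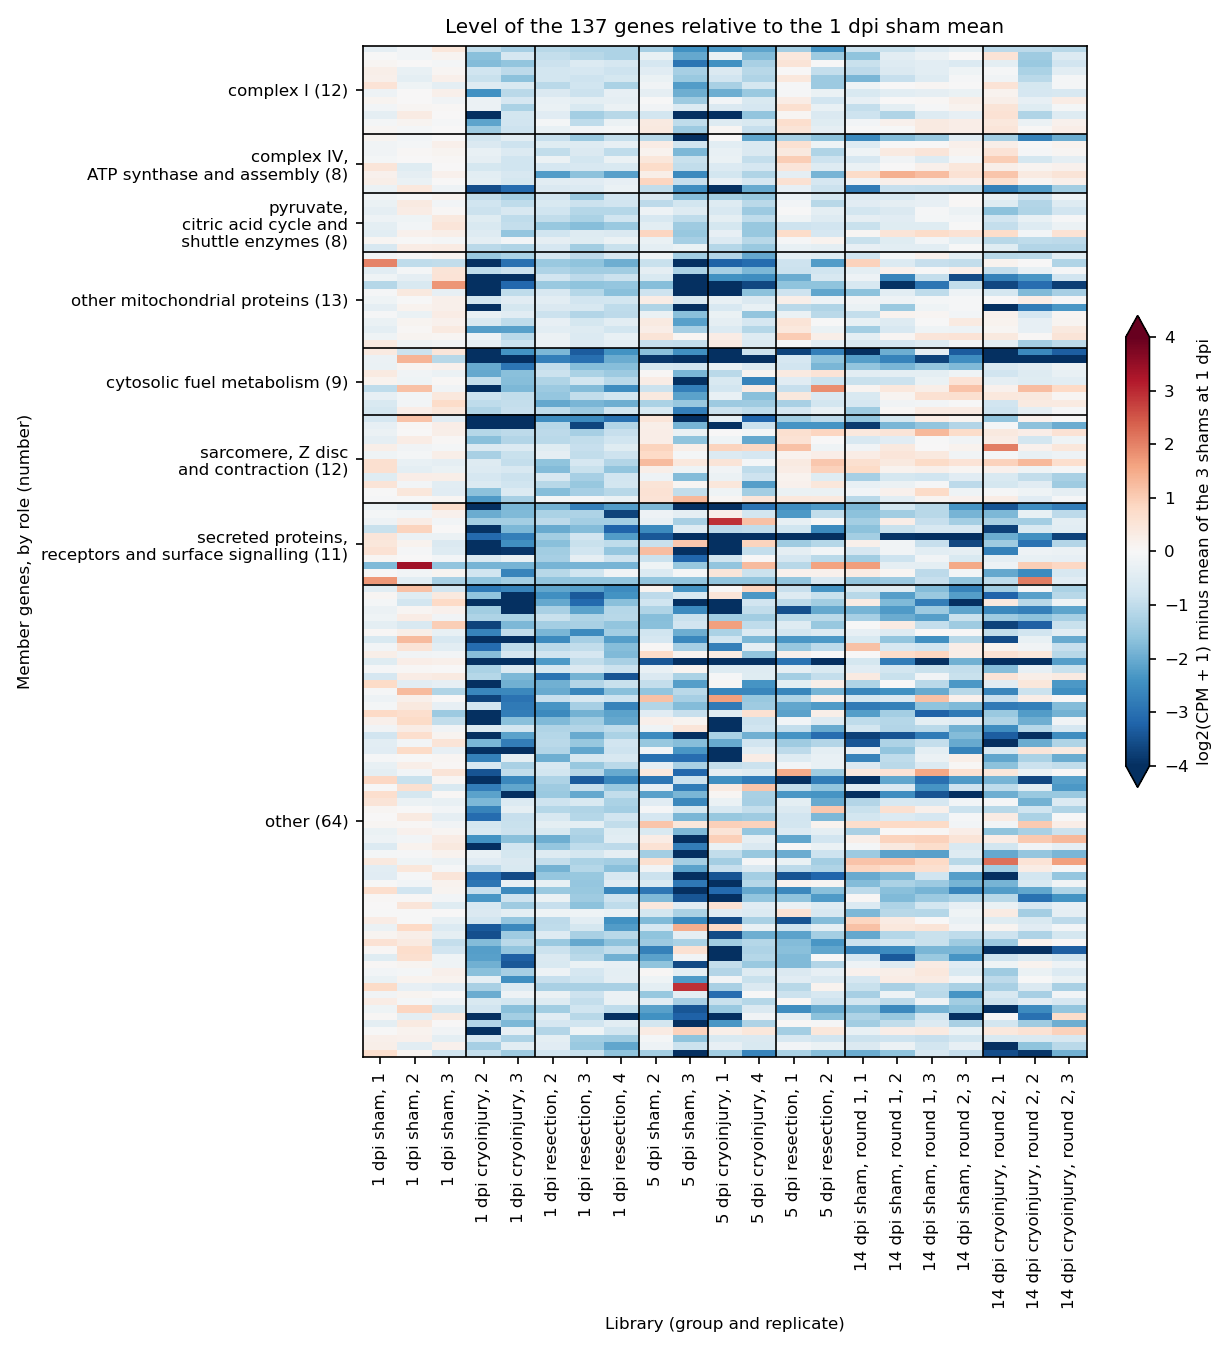
Heat map of the 137 members (rows, by role) in all 21 libraries (columns, by group and replicate), coloured by log2(CPM + 1) minus the mean of the 3 shams at 1 dpi. The 5 injured libraries at 1 dpi are blue throughout by the choice of members, and the later libraries, shams included, hold many rows that are still blue, most of all 5 dpi sham replicate 3.

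Complex I was the largest single machine among the members. Its 12 places were taken by 11 subunits (NDUFB6, NDUFS8, NDUFAB1, NDUFA12, NDUFA9, ndufa9b, NDUFB10, NDUFA8, NDUFB2, NDUFV2 and NDUFS7) and by TMEM126A, which helps to assemble the complex. NDUFS8, a subunit with iron-sulphur clusters, was at 451, 428 and 399 CPM in the shams, at 128 and 141 CPM after cryoinjury and at 233, 293 and 269.6 CPM after resection. On column totals the cryoinjured hearts were thus the lowest and the shams varied little. TMM-scaled log2 values relative to the 1 dpi shams gave another order for the median of the 12 complex I places. It was -1.4 and -0.7 after cryoinjury, -2.1 to -2.0 after resection and -0.5 to 0.7 in the shams. Over all 38 complex I subunits in the table, found by name after the values were seen, 36 had a higher mean in the shams than in the injured libraries, with a median log2 difference of 0.62 where the median of all 25366 detected genes was -0.39. After TMM scaling of the 1 dpi libraries it was 38 of 38, with a median of 1.30 where that of all genes was -0.16. The summed complex I level overlapped, at 8920 to 11620.5 CPM in the shams and 6649 to 9375 CPM in the injured libraries. It overlapped after TMM scaling too, at 9662 to 20878 and 4169 to 10936 CPM. The 11 member subunits are among the 38, and these same libraries chose the members. Counts over whole lists at 1 dpi, here and below, are therefore a description and not a test. Their background is that 4533 of all 25366 detected genes had a higher mean in the shams, or 7147 after TMM scaling.

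The other complexes were unequal. The 18 ATP synthase subunits all had higher means in the shams (median log2 difference 0.53), 4 of them members, namely ATP5PO, atp5mc1, ATP5PD and atp5mc3b. atp5mc1 and atp5mc3b are close copies of one another, so the share of reads given to each is uncertain. Of 9 complex III subunits, 8 were higher in the shams and 0 were members, and of 22 complex IV subunits, 15 were higher and 2, cox6b2 and cox7a1, were members. Of 5 complex II subunits, 3 were higher (median 0.16), 0 were members, and their totals overlapped, at 754 to 1094 CPM in the shams and 498 to 1107 CPM in the injured libraries. The totals of complexes III and IV overlapped too. For ATP synthase, complex III and complex IV under TMM scaling the counts were 18 of 18, 9 of 9 and 19 of 22. For complex II the count was then 4 of 5 (median 0.83). Its TMM-scaled totals lay apart, at 831 to 1656 CPM in the shams and 539 to 740 CPM in the injured libraries. Those of ATP synthase, complex III and complex IV overlapped, so the contrast with complex II depended on the scaling. In mammals COX7A1 is the subunit of complex IV found in heart and skeletal muscle. The zebrafish cox7a1 was at 539, 379 and 548 CPM in the shams, at 359.7 and 306 CPM after cryoinjury and at 102, 155 and 105 CPM after resection, so here the resected hearts were the lowest.

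Enzymes that feed the respiratory chain followed. Members were the pyruvate carrier MPC1, the pyruvate dehydrogenase components PDHB and DLAT, citrate synthase (CS), fumarase (FH), malate dehydrogenase (MDH2), kgd4 of the oxoglutarate dehydrogenase complex, and the aspartate aminotransferase GOT2. MDH2, which closes the citric acid cycle, was at 3489.7 to 6447 CPM in the 3 shams, at 2991 and 2366 CPM after cryoinjury and at 1395 to 1648 CPM after resection. CS, which opens the cycle, was at 749.6, 1183 and 981 CPM in the shams and at 428 to 612 CPM in the 5 injured libraries. In a list of 18 enzymes of this kind, 11 had higher means in the shams and 6 were members. GCDH, a mitochondrial dehydrogenase of lysine breakdown, was at 22.7, 19.6 and 37.7 CPM in the shams and at 11.8 to 14.6 CPM after resection, while cryoinjury left 0 and 0.043 CPM.

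Some of the most abundant members carry metabolites or fuel. SLC25A5, the carrier that exchanges ADP for ATP across the inner mitochondrial membrane, was at 21326, 27458 and 40728 CPM in the shams, at 14376 and 15816 CPM after cryoinjury and at 10877 to 12344 CPM after resection. The porins VDAC2 and VDAC3, the superoxide dismutase SOD2 and HADHA, a fatty acid oxidation enzyme, sat closer to the limit of the rule. The glycolytic enzyme GAPDH had the highest level of all members, with 32797, 46510.2 and 83600.0 CPM in the shams, 24799.8 and 25912 CPM after cryoinjury and 12125 to 14052 CPM after resection. GPI, which acts earlier in glycolysis, was at 323, 418 and 435 CPM in the shams against 96.3 and 52.0 CPM after cryoinjury and 118 to 195 CPM after resection. BPGM, which makes 2,3-bisphosphoglycerate, was at 19.2 to 50.4 CPM in the shams and at 0.993 to 9.56 CPM in the injured libraries. ppp1r3aa, named for a subunit that steers protein phosphatase 1 to glycogen, was at 32.5, 101 and 17.3 CPM in the shams, at 3.87 to 8.99 CPM after resection and at 0 and 1 count after cryoinjury.

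Proteins of the contractile apparatus held the first place in the ranking. LMOD2, which builds actin thin filaments in heart muscle, was at 21.7, 78.03 and 25.4 CPM in the shams and at 5.43, 5.38 and 3.53 CPM after resection, and cryoinjury left 0 and 8 counts. The beta-type cardiac myosin MYH7 was at 24155, 12667 and 11962 CPM in the shams, with the last of these just above the highest injured library at 10665 CPM. Myosin heavy chain genes are near copies of one another, so the share of reads given to each is uncertain. The oxygen store myoglobin (mb) was at 15915 to 24858 CPM in the shams and 6366 to 11718 CPM in the injured libraries. Troponin C (tnnc1a) and the Z-disc protein actn2b were the members found among the 21 cardiomyocyte markers. Of these markers 10 had a higher mean in the shams, against 4533 of all 25366 detected genes. tnnc1a was at 1359 to 2567 CPM in the shams and at 626 to 1237 CPM in the injured libraries, and actn2b at 816 to 1067 and at 369 to 703 CPM. After TMM scaling 14 of the 21 markers were higher in the shams, against 7147 of the 25366 genes. Other members of this kind were ldb3b, tnni4a, CSRP3, trim55a, pln1, MYL9 and mylk2.

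In the shams of 1 dpi the mean level ran from 1.58 to 82.0 CPM over the secreted, receptor and surface proteins and from 1.61 to 1249.65 CPM over the unclassified members. KAZALD1, a secreted protein that ranked second, was at 30.0, 25.7 and 59.3 CPM in the shams and at 0 to 9.28 CPM in the injured libraries. NRP2, a receptor for semaphorins and VEGF, was at 29.2 to 36.2 CPM in the shams and at 1.53 to 13.1 CPM in the injured libraries. The hormone gene ins was chosen on very little, with 35, 132 and 50 counts in the shams and 4 counts in a single injured library. The ranking also placed si:dkey-203c4.2, klhl43, si:ch211-67f24.7 and CBLL2 among its first 10 named genes. MAP1LC3B, whose protein coats autophagosomes, was the last member, with a lowest sham of 40.1 CPM against a highest injured library of 40.0 CPM. It went against most of its list, since 24 of 28 autophagy and lysosome genes had higher means in the injured libraries, or 19 of 28 after TMM scaling. Most genes of any kind did the same. Of all 25366 detected genes, 20833 had higher means in the injured libraries, or 18219 after TMM scaling, so the direction did not mark this list. Just inside the limit with it were HADHA (lowest sham 189.6 CPM, highest injured 187 CPM) and a gene without a symbol (59.2 against 58.9 CPM), and just outside came the tied genes at 0 CPM on both sides.

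**Figure D2:**
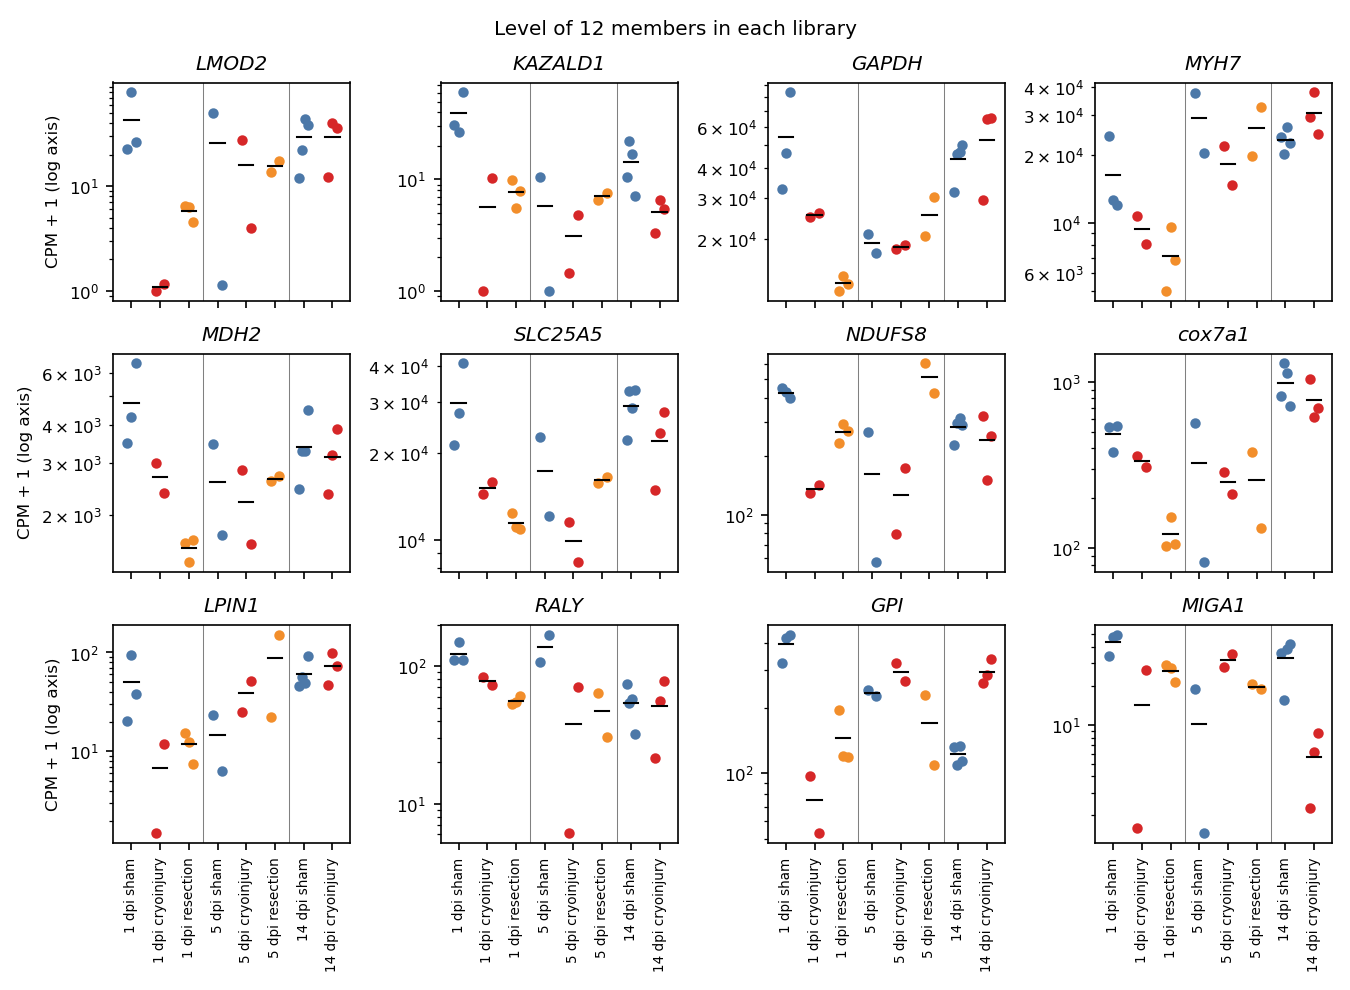
Level of 12 members in every library as CPM + 1 on a log axis, with sham in blue, cryoinjury in red and resection in orange; each point is a library and each black line a group mean. GAPDH lay at 17498 to 30263 CPM at 5 dpi, below every sham of 1 dpi, and at 29324 to 64885 CPM at 14 dpi, while LMOD2 and NDUFS8 split the 2 shams at 5 dpi.

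Recovery was first read against each member's own limits at 1 dpi. A member was taken to be back in a later library when it was at or above its lowest sham at 1 dpi. At 5 dpi this held for 61 and 39 of the 137 members in the 2 resection libraries and for 44 and 28 in the 2 cryoinjury libraries. The 2 shams at 5 dpi, which had no injury to recover from, gave 63 and 27. At 14 dpi the 3 cryoinjury libraries gave 54, 47 and 54, and the 4 shams gave 44, 53, 65 and 71. The later shams therefore covered the range of the injured libraries, and no later library had more than 71 members back. Among the 5813 genes whose lowest sham at 1 dpi was at least 1 CPM, 63.4% to 83.9% passed the same limit in the 13 later libraries, against 19.7% to 51.8% of the members, which had been chosen for a high lowest sham.

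**Figure D3:**
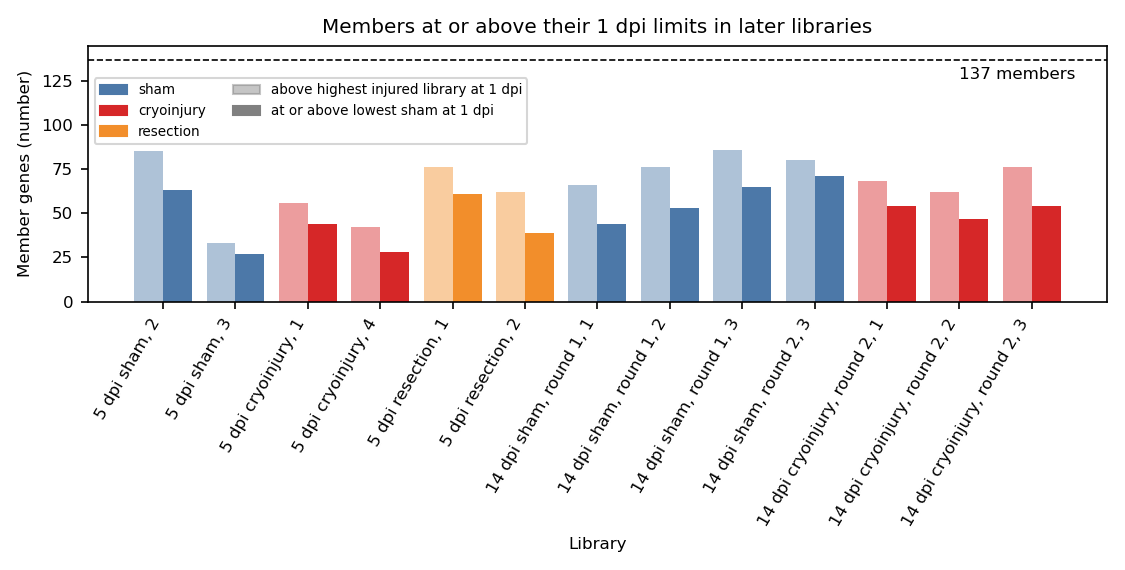
Number of the 137 members (y axis) in each library at 5 and 14 dpi (x axis) that lay above their highest injured library at 1 dpi (pale bars) or at or above their lowest sham at 1 dpi (full bars). Shams at 5 dpi gave the highest and the lowest full bar of that day, 63 and 27, and shams at 14 dpi ran from 44 to 71.

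Asked of every library in a group, the counts were smaller. No share over all genes was computed for them, and groups with unlike numbers of libraries cannot be set against each other by such a count. At 5 dpi 28 members were back in both resection libraries, 15 in both cryoinjury libraries and 16 in both shams. At 14 dpi 26 were back in all 3 cryoinjury libraries and 23 in all 4 shams. Members that stayed at or below their highest injured level of 1 dpi in every library numbered 62 after cryoinjury and 44 after resection at 5 dpi, 44 after cryoinjury at 14 dpi, and 44 and 28 in the shams of 5 and 14 dpi. On TMM-scaled values over all 21 libraries 8 members were back in both resection libraries and 5 in both cryoinjury libraries at 5 dpi. On that scale 96 stayed at or below the injured level after cryoinjury. The sham counts on that scale are not given here. Its median member stood at -0.99 and -1.77 in the 5 dpi shams, -1.04 and -1.55 after resection and -1.47 and -1.71 after cryoinjury. With 5 dpi sham replicate 3 left out, the sham count of 16 became 63, and with replicate 2 left out it became 27.

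The 2 shams at 5 dpi differed more than the 2 libraries of either injury. Replicate 2 of these shams is labelled as merged and replicate 3 is not. The median member stood at -0.41 on the log2(CPM + 1) scale relative to the 1 dpi shams in replicate 2 and at -1.52 in replicate 3, which lay within the -1.59 to -0.99 of the 5 injured libraries at 1 dpi. The macrophage marker total was 91.4 CPM in replicate 2 and 732 CPM in replicate 3. In the same order, the cryoinjury libraries of 5 dpi had 465 and 1585 CPM of these markers with 44 and 28 members back, and the resection libraries had 605 and 311 CPM with 61 and 39 members back. At 14 dpi the shams had 145 to 249 CPM and the cryoinjury libraries 501 to 1276 CPM, with medians of -0.68 to -0.34 and -0.75 to -0.44. The part of these markers in the members' levels was not tested.

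Contractile members were back most often at 5 dpi. The median of the 12, relative to the 1 dpi shams, was 0.31 after resection and -0.60 after cryoinjury at 5 dpi and -0.19 after cryoinjury at 14 dpi, with 0.02 and -0.11 in the shams of those days. On TMM-scaled values the sign after resection turned, with medians of -0.25 and -0.66 in the 2 resection libraries. The 2 cryoinjury libraries then stood at -0.87 and -1.60. Shams were negative on that scale too, at -0.07 and -0.46 at 5 dpi, and the shams of 1 dpi ran from -0.45 to 0.69. At 5 dpi 9 of the 12 were back in both resection libraries, 4 in both cryoinjury libraries and 6 in both shams. MYH7 was back in all 13 later libraries and stood at 19789.9 and 32473 CPM after resection and 21813 and 14669 CPM after cryoinjury at 5 dpi, with 37439.7 and 20427 CPM in the shams. The Z-disc protein ldb3b and MYL9, a regulatory myosin light chain, were above the injured level in all 13. ldb3b reached 1289 and 1522 CPM after resection at 5 dpi, above its 715 to 973 CPM in the shams of 1 dpi. Every sham of 14 dpi and 5 dpi sham replicate 2 also lay above that range, while 5 dpi sham replicate 3 lay below it. LMOD2 was uneven, at 12.7 and 16.6 CPM after resection, 26.7 and 3.01 CPM after cryoinjury and 49.7 and 0.139 CPM in the shams.

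Mitochondrial members differed between the 2 resection libraries of 5 dpi, of which replicate 2 stood close to or below cryoinjury replicate 1. At 5 dpi the median of the 12 complex I members was -0.98 after cryoinjury, -0.24 after resection and -1.03 in the shams, and at 14 dpi it was -0.38 after cryoinjury and -0.48 in the shams. None of the 12 was back in both cryoinjury libraries at 5 dpi and 1 was back in both resection libraries. The medians of resection replicates 1 and 2 stood at 0.35 and -0.67, and cryoinjury replicates 1 and 4 at -0.67 and -1.16. A further group held 8 members, subunits of complex IV and ATP synthase together with assembly proteins. Its median was lower in resection replicate 2 (-0.84) than in either cryoinjury library (-0.39 and -0.81), against 0.44 in resection replicate 1. By count, 11 complex I members were back in replicate 1 and 1 in replicate 2. The cryoinjury libraries of 14 dpi also disagreed, since in them 10, 1 and 6 of the 12 were back. The group of complex IV, ATP synthase and assembly went from -0.61 after cryoinjury at 5 dpi to 0.14 at 14 dpi. The median of the pyruvate and citric acid cycle members went from -0.99 to -0.65. In the shams of the same days these medians went from -0.53 to 0.01 and from -0.81 to -0.34. SOD2, which detoxifies superoxide in mitochondria, was at 594 and 346 CPM after resection at 5 dpi. It was among the 3 members highest there relative to the shams of 1 dpi (258 to 315 CPM). Of the 5 dpi shams, replicate 2 also exceeded that range, and replicate 3 lay within it.

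**Figure D4:**
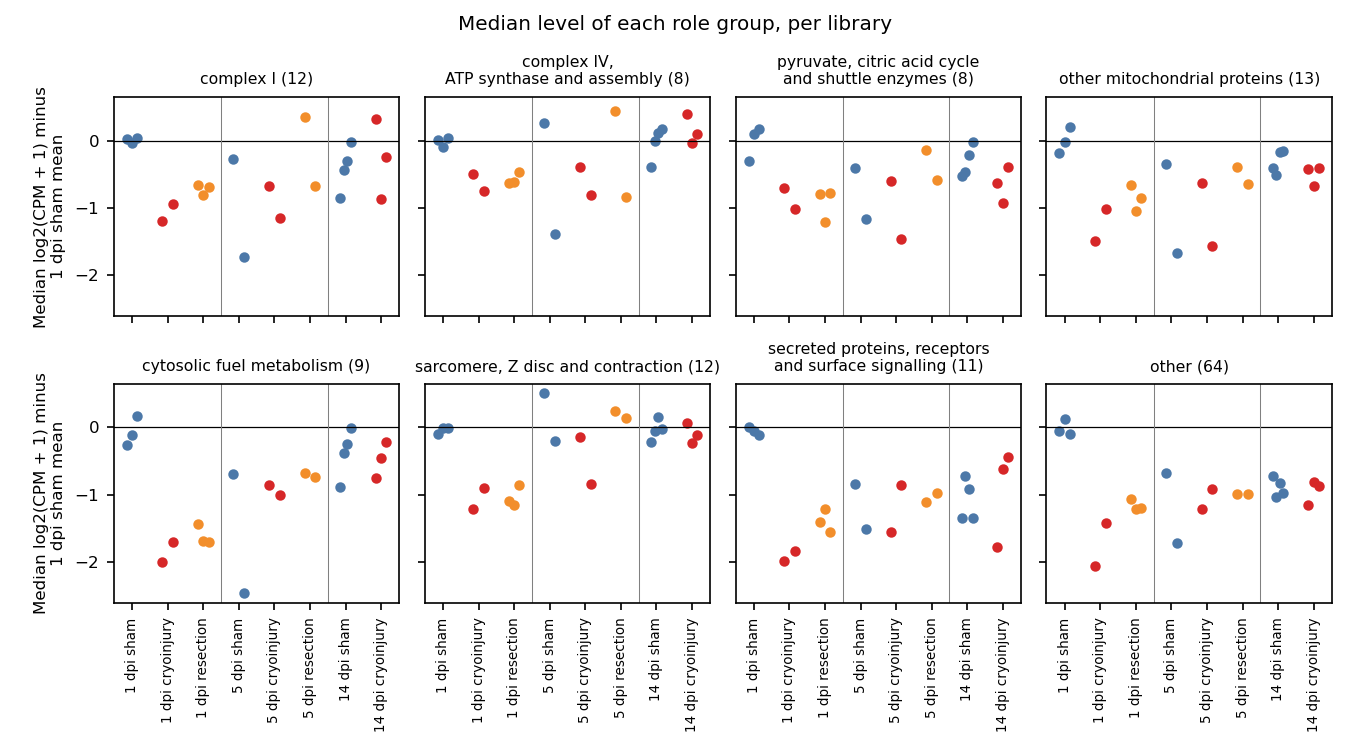
Median level of each role group (number of members in brackets) in every library, as log2(CPM + 1) minus the mean of the 1 dpi shams (y axis), with sham in blue, cryoinjury in red and resection in orange. From 5 dpi on, sarcomere medians ran from -0.85 to 0.50 and those of the unclassified members from -1.72 to -0.68, and 5 dpi sham replicate 3 was the lowest later library for complex I.

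A remainder stayed under the sham limit of 1 dpi in every later library, shams included, so the count does not show failed recovery after injury. In none of the 13 later libraries did 13 members reach their lowest sham of 1 dpi, and 8 of them never exceeded their highest injured level. The share of all genes that stayed under the limit throughout was not counted. Among the 13 were KAZALD1, CBLL2, TMEM126A, TMED3, zgc:112163, nol12, ogfr, ASNSD1 and HCCS, chosen here by that count. TMED3, which helps to sort secretory cargo, was at 32.1 to 54.0 CPM in the shams of 1 dpi. At 5 dpi it was at 0.217 and 1.13 CPM after resection and at 0.231 and 0.475 CPM after cryoinjury, and the shams of that day held 2.73 and 0.278 CPM. KAZALD1 was at 2.34, 5.59 and 4.46 CPM after cryoinjury at 14 dpi and at 9.54, 21.2, 16.1 and 6.12 CPM in the shams, all under the 25.7 CPM of the lowest sham at 1 dpi. The other members lowest at 5 dpi relative to the 1 dpi shams were ppp1r3aa and NADK2 after cryoinjury and SNX30 and zgc:112163 after resection, and the highest were ins, zbtb4 and MYL9 after cryoinjury and ldb3b, MYH7 and SOD2 after resection.

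At 5 and 14 dpi the members were then tested, since these libraries had no part in the rule. Tests ran across all genes that passed the expression filter, by edgeR's quasi-likelihood test with Benjamini-Hochberg adjustment, and each comparison had its background. In resection against sham at 5 dpi none of 136 members tested and none of 15423 genes (0.0%) was called. At an unadjusted p under 0.05, edgeR found 3 members (2.21%), 2 higher and 1 lower, against 3.26% of all genes (0.746% higher and 2.52% lower), and DESeq2 called 0 members and 153 genes. The median log2 fold change was 0.11 over the members and 0.08 over all genes. Resection lay wholly above the shams for 25 members (18.4%, against 20.1% of all genes) and wholly below for 13 (9.56%, against 11.2%). Without 5 dpi sham replicate 2 the test called 21 members and 1599 genes, and the members' median was 0.79, and without 5 dpi sham replicate 3 or resection replicate 1 it was -0.18 or -0.35.

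Named by their p-values in that comparison were ppp1r3aa and LPIN1, higher, and RALY and si:ch211-260b17.3, lower. ppp1r3aa was at 23.7 and 12.01 CPM after resection and at 1.67 and 0.0464 CPM in the shams, a log2 fold change of 4.35 ± 1.85 (standard error, edgeR adjusted p = 1.00). LPIN1, an enzyme of triglyceride synthesis, was at 21.3 and 151 CPM after resection and at 22.2 and 5.29 CPM in the shams (2.42 ± 1.08), and its groups overlapped. RALY, an RNA-binding protein, was at 62.4 and 29.5 CPM after resection and at 106 and 169 CPM in the shams (-1.81 ± 0.84). si:ch211-260b17.3 was at 17.7 CPM in 5 dpi sham replicate 3 and under 2 CPM in the other 3 libraries.

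Cryoinjury against sham at 5 dpi gave the same count. None of 133 members and none of 14286 genes (0.0%) was called by edgeR, 0 members and 3.62% of genes had an unadjusted p under 0.05 (1.18% higher and 2.44% lower), and DESeq2 called 0 members and 282 genes. The members' median was -0.37 where that of all genes was -0.01, with 95 of 133 members lower after cryoinjury. Cryoinjury lay wholly below the shams for 13 members (9.77%, against 13.5% of all genes) and wholly above for 13 (against 18.0%). Without 5 dpi sham replicate 2 the median turned to 0.29, and 1 member and 261 genes were called. RALY again had the smallest p among those lower, at 5.15 and 69.1 CPM after cryoinjury (-2.24 ± 1.07). ifi27.1, of a family induced by interferon, was at 200.4 and 335 CPM after cryoinjury and 123 and 21.6 CPM in the shams (1.73 ± 0.87), and ins was at 18.2 and 4.80 CPM against 1.06 and 0.0464 CPM. The calcium-binding s100a11 had 0 counts in both cryoinjury libraries and 20 and 40 counts in the shams. In this comparison fast skeletal muscle markers had a median log2 fold change of 5.69 with 8 of 11 higher at an unadjusted p under 0.05, and macrophage markers had a median of 2.10 with 3 of 21 higher. Their part in the members' values was not tested. Comparisons with sham at 5 dpi share their 2 shams.

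The injuries were also compared directly at 5 dpi. Resection stood higher for 92 of 133 members, with a median log2 fold change of 0.50 against 0.06 over all genes. It lay wholly above cryoinjury for 38 members (28.6%, against 20.1% of all genes) and wholly below for 17 (12.8%, against 16.3%). No member and none of 14709 genes (0.0%) passed the threshold, 7 members (5.26%), 5 higher and 2 lower, had an unadjusted p under 0.05 against 5.19% of genes (3.84% higher and 1.35% lower), and DESeq2 called 1 member and 253 genes. All 12 complex I members were higher after resection (median 0.87), as were all 8 of pyruvate and citric acid cycle metabolism (0.97). Over all 38 complex I subunits the median was 0.65, with 4 at an unadjusted p under 0.05. NDUFS8 was at 604 and 423 CPM after resection and at 78.3 and 172 CPM after cryoinjury (2.22 ± 0.62, edgeR adjusted p = 0.87). ppp1r3aa had 655 and 127 counts after resection and 0 and 2 counts after cryoinjury, and its fitted fold is no bound. ifi27.1 and gpx4a, a glutathione peroxidase, were lower after resection by p, with log2 fold changes of -1.83 ± 0.60 and -1.71 ± 0.73. Without cryoinjury replicate 4 the test called 16 members and 1437 genes, without cryoinjury replicate 1 it called 1 member and 111 genes, and without resection replicate 1 the median was 0.09. Among markers of other cells, fast skeletal muscle genes had a median of -6.79 (6 of 11 lower at an unadjusted p under 0.05) and Schwann cell and neuron genes of 3.53 (3 of 8 higher), and their part in the members' values was not tested.

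At 14 dpi cryoinjury alone was studied. Of 136 members tested, none was called, nor was any of 15020 genes (0.0%). An unadjusted p under 0.05 was found for 13 members (9.56%), 3 higher and 10 lower, against 5.72% of genes (3.02% higher and 2.7% lower), and DESeq2 called 2 members and 177 genes. The members' median was -0.14, against -0.01 over all genes, and it was -0.32 with the round as a covariate, -0.34 in round 2 libraries alone and -0.0038 without 14 dpi sham round 2 replicate 3. Cryoinjury lay wholly below the shams for 11 members (8.09%, against 3.46% of all genes) and wholly above for 4 (2.94%, against 4.65%). The rounds are those of the labels, and round 1 held shams only. Markers of other cells had median log2 fold changes of 1.71 for epicardium and fibroblasts (11 of 20 higher at an unadjusted p under 0.05), 1.81 for macrophages (8 of 20 higher and 1 lower) and -2.78 for erythrocytes (8 of 12 lower). Their part was not tested.

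At 14 dpi members were named by the 2 smallest p in each direction, so opposite signs follow from the choice. These were GPI and ambp, higher after cryoinjury, and MIGA1 and MAP1LC3B, lower. GPI was at 259.8, 282 and 335 CPM after cryoinjury and at 131, 108, 133 and 113 CPM in the shams, without overlap, a log2 fold change of 1.24 ± 0.28 with an edgeR adjusted p of 0.37. Of these 7 libraries, only cryoinjury replicate 3 was above the 323 CPM of the lowest sham at 1 dpi. MIGA1, which takes part in mitochondrial fusion, was at 1.29, 5.19 and 7.63 CPM after cryoinjury and at 34.7, 14.6, 37.4 and 41.3 CPM in the shams (-2.82 ± 0.66, adjusted p = 0.37). CS was at 309, 409.6 and 564 CPM after cryoinjury and at 569 to 924 CPM in the shams, again without overlap. MAP1LC3B was at 4.95, 3.73 and 17.5 CPM after cryoinjury and at 16.8 to 43.6 CPM in the shams (-1.83 ± 0.63, adjusted p = 0.77), where the groups overlapped. ambp, a plasma protein precursor, rested on 361 counts in cryoinjury replicate 2 and 13 and 41 counts in the others.

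After cryoinjury the members stood higher at 14 than at 5 dpi. The median log2 fold change of 135 members was 0.84, against 0.10 over all genes, and 103 were higher at 14 dpi. The 3 later libraries lay wholly above the 2 earlier ones for 37 members (27.4%, against 10.1% of all genes) and wholly below for 10 (7.41%, against 15.9%). No member and none of 15542 genes (0.0%) was called by edgeR. At an unadjusted p under 0.05 there were 28 members (20.7%), 27 of them higher, against 6.55% of all genes (3.83% higher and 2.72% lower). DESeq2 called 3 members and 552 genes. GAPDH went from 18298 and 18931 CPM to 29324, 64410.3 and 64885 CPM (1.89 ± 0.48, edgeR adjusted p = 0.67), and cox7a1 from 287 and 211 CPM to 1042, 615 and 696 CPM (2.04 ± 0.46, adjusted p = 0.67). Over all tested subunits the medians were 1.11 for complex I, 1.08 for complex III, 1.4 for complex IV and 1.28 for ATP synthase, with 20 of 38, 5 of 9, 12 of 21 and 13 of 18 subunits at an unadjusted p under 0.05, all higher at 14 dpi. Complex II had a median of 0.38 with 0 of 5 such subunits. Fast skeletal muscle markers had a median of -6.61 (11 of 15 lower and 1 higher at an unadjusted p under 0.05) and erythrocyte markers of -2.74 (7 of 12 lower), and their part in the members' values was not tested. Among the members, ifi27.1 and MIGA1 had the smallest p among those lower at 14 dpi (-1.41 and -2.32).

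In the shams, too, the members stood higher at 14 than at 5 dpi. Their median over 136 members was 0.50, against 0.12 over all genes, with 104 higher at 14 dpi. None of the members and none of 16051 genes (0.0%) was called by edgeR, 16 members (11.8%), 12 higher and 4 lower, had an unadjusted p under 0.05 against 9.10% of genes (2.34% higher and 6.76% lower), and DESeq2 called 2 members and 265 genes. Shams of 14 dpi lay wholly above those of 5 dpi for 17 members (12.5%, against 5.38% of all genes) and wholly below for 11 (8.09%, against 11.6%). Leaving out 1 library gave medians from 0.21 to 1.24, the highest without 5 dpi sham replicate 2. On column totals the median member of that replicate stood at -0.41 relative to the 1 dpi shams. This lay within the -0.68 to -0.34 of the 14 dpi shams, and only 5 dpi sham replicate 3, at -1.52, lay below them. GAPDH was at 21124 and 17498 CPM at 5 dpi and at 31615, 45842, 46797 and 50002 CPM at 14 dpi (1.31 ± 0.42, adjusted p = 0.33), and LPIN1 went from 22.2 and 5.29 CPM to 44.5, 55.1, 48.6 and 91.4 CPM (2.39 ± 0.72, adjusted p = 0.31). Lower at 14 dpi by p were si:ch211-260b17.3 and RALY, the latter at 72.8, 53.2, 56.8 and 31.1 CPM (-1.32 ± 0.50). Subunit medians were 0.82 for complex I, 0.70 for complexes II and III, 0.78 for complex IV and 0.32 for ATP synthase. At an unadjusted edgeR p under 0.05, 10 of 38 complex I, 1 of 9 complex III and 6 of 18 ATP synthase subunits were higher. Of 21 complex IV subunits 2 were higher and 1 lower, and of 5 complex II subunits 0 were either. Whether the difference between the days was itself unequal in shams and cryoinjured hearts was not tested.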

How the data were processed

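Macrophage nuclei were labelled with biotin in vivo, pulled down with streptavidin from single hearts, and sequenced in paired ends after SMART-seq v4 amplification. According to the study's methods and the submitters' processing notes, the authors aligned reads with STAR 2.4.2a to danRer10, counted them per gene with featureCounts at its standard parameters, and deposited a table of raw counts per gene. Those parameters do not use strand, so reads from a gene and an overlapping antisense gene cannot be told apart. The table held 31953 genes, of which 1 with missing values was left out, and 2 of its columns matched no sample and were not used.

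Levels are CPM on column totals, and log2 values have 1 CPM added. The 13 genes of the mitochondrial genome were left out of the ranking, and none would have entered the list. Each comparison at 5 and 14 dpi was fitted on its own 2 groups with edgeR 4.0.16 (R 4.3.3), using TMM scaling, filterByExpr and the quasi-likelihood test, with Benjamini-Hochberg adjustment over all genes tested and a threshold of 0.05. Total counts of 10577395 to 61141100 set the precision, with a floor of 3 counts, and p-values measure the spread between single hearts. DESeq2 1.42.0, other scalings and filters, a replicate block, the labelled round and leaving out each library were alternatives. The scripts were tested on simulated data.

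The members and gene lists were chosen with earlier results of these data known. Genes named in the text are the 10 highest ranked, the 5 most abundant in the 1 dpi shams, for each comparison the 2 members with the smallest p among those higher and among those lower, members of the marker and pathway lists, the 3 just inside the limit, and the 3 highest and lowest at 5 dpi after each injury. Other members were named after their values were seen. The lists of respiratory complexes and citric acid cycle enzymes were drawn up after the values were seen.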

Additional observations from a re-analysis of the deposited data

Results flagged for a closer look

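Of 45 values checked among the 4 shams at 14 dpi, 4 had a library far from the other 3 by Dixon's test, which chance alone gives in about 1 of 20 such groups. The hormone gene ins was at 2.05 CPM in round 1 replicate 2 and at 0 to 0.349 CPM in the others. The plasma protein gene ambp was at 0.559 CPM in round 1 replicate 3 and at 0 to 0.0852 CPM in the others. TMED3 was at 14.4 CPM in round 1 replicate 1 and at 0.221 to 1.58 CPM in the others. The zinc finger gene zbtb4 was lower in round 2 replicate 3, at 153 CPM, than in the others, at 266 to 286 CPM.

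MIGA1 went in opposite directions on the 2 days when cryoinjury was set against sham. Its difference of mean log2(CPM + 1) was 2.58 at 5 dpi and -2.64 at 14 dpi, with every cryoinjury library above every sham at 5 dpi and below every sham at 14 dpi. Without sham replicate 3, which held 0.464 CPM, the difference at 5 dpi was 0.74, a value computed after seeing the data. It was found among 82 pairs of effects, and the difference between the days was not tested.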

How the results depend on the processing

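For the members named by their p-values in a comparison, the only ones refitted singly, the fold change kept its sign in that comparison under the alternatives run. The number of members called was 0 in each of the 6 comparisons. By DESeq2 it was 2 of 137 in cryoinjury against sham at 14 dpi, where 177 of 22586 genes were called. It was 1 of 137 in resection against cryoinjury at 5 dpi, with 253 of 22044 genes. In cryoinjury at 14 against 5 dpi it was 3 of 137, with 552 of 22508 genes. In sham at 14 against 5 dpi it was 2 of 137, with 265 of 23383 genes. With no filter beyond 1 count it was 1 in cryoinjury against sham at 14 dpi, 3 in cryoinjury at 14 against 5 dpi and 2 in sham at 14 against 5 dpi. No share over all genes is given for these unfiltered counts, so they cannot be set against a background. Leaving out 1 library gave 0 to 21 in resection against sham and 0 to 1 in cryoinjury against sham at 5 dpi, 0 to 16 in resection against cryoinjury, and 0 to 27 in sham at 14 against 5 dpi. A library left alone in its group was assumed to vary like the others. With the replicate number as a block, 0 members were called in both comparisons that allowed it, although same-numbered libraries did not deviate together (correlations of -0.11 to 0.05). The list held 75 genes when cut at 75 places. With no limit on places, leaving out a library at 1 dpi gave 163 to 563 genes with a ratio above 1. On TMM-scaled values, members back in every library at 5 dpi numbered 5 after cryoinjury and 8 after resection. With that scaling 96 stayed at or below the injured level after cryoinjury, and 29 were above it after resection. No sham counts are given for that scaling, so these counts have no uninjured reference. In an alternative added after the data were seen, leaving out 1 library gave, for members back, above the injured level, and at or below it, 27 to 63, 33 to 85 and 52 to 104 in shams at 5 dpi. It gave 28 to 44, 42 to 56 and 81 to 95 after cryoinjury and 39 to 61, 62 to 76 and 61 to 75 after resection at 5 dpi. At 14 dpi it gave 23 to 35, 44 to 56 and 30 to 35 in shams and 31 to 38, 43 to 58 and 50 to 52 after cryoinjury. Groups of 2 libraries limit what these counts can show.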
